A study of Mus musculus with 6 samples.

Results

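The insulin-like growth factor (IGF) family in mouse skin was followed through 10 genes chosen by name, namely the 2 ligands Igf1 and Igf2, the 2 receptors Igf1r and Igf2r, and the 6 binding proteins Igfbp2 to Igfbp7. All 10 were found among the 55291 genes of the deposited table, and all 10 were among the 19971 genes with enough counts to be tested. The data are 6 RNA-seq libraries, each from the shaved back skin of a single mouse, 3 of the tight skin (TSK) genotype and 3 wild-type (WT), made after removal of ribosomal RNA. The TSK allele is a duplication within Fbn1, the gene for fibrillin 1, a glycoprotein of the extracellular microfibrils, and the skin of its carriers is thick and firmly bound. The labels place both groups in the C57BL/6 strain at 6 to 8 weeks of age, and the WT mice were littermates of the TSK mice. The comparison asks how dorsal skin with the mutation differs from normal dorsal skin. The mutation is present in every tissue of these mice, and whole skin was sequenced, so no value belongs to 1 cell type.

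IGF1 and IGF2 are secreted growth factors that act on growth, survival and matrix production, and in skin they come largely from dermal fibroblasts and other mesenchymal cells. Both signal through IGF1R, a receptor tyrosine kinase that feeds the PI3K and AKT pathway, whereas IGF2R carries IGF2 to the lysosome for degradation. Most IGF in tissue is held by binding proteins, which limit its access to the receptor, store it in the matrix, and release it when a protease cuts them.

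The libraries held 17561453 to 19219814 estimated counts each. Values are given as deposited CPM (counts scaled to a library total of 1000000) unless stated otherwise, and as CPM per kilobase of exon wherever genes are compared with each other. Fbn1 itself was at 267, 289 and 262 CPM in WT 1 to WT 3 and at 1538, 2284 and 2007 CPM in TSK 1 to TSK 3, and its log2 fold change was 2.54 (adjusted p = 0.00327, edgeR). The sex of the mice is female in the labels but male in the methods. The Y-linked gene Ddx3y stood at 66.6 to 72.8 CPM in WT and 56.7 to 72.5 CPM in TSK libraries, and Xist, expressed from the inactive X chromosome, at 2.98 to 4.58 and 2.57 to 3.60 CPM, so the groups were alike in these markers. A Y-linked transcript was thus present in all 6 libraries, at odds with the female label. Skin markers were present in every library, and 11 genes of adult skeletal muscle took 15.99% to 23.3% of the counts in WT and 13.9% to 15.9% in TSK libraries. Changes were tested with edgeR after TMM scaling, which limits the weight of a few abundant genes in the library total, and a gene was called at an adjusted p below 0.05. On this scale the 19971 tested genes had a median log2 fold change of -0.03, whereas with scaling by library size alone it was 0.25.

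In TSK skin, changes that passed the test were found among the binding proteins. With edgeR, Igfbp4 and Igfbp7 rose in TSK skin, 2 of the 10 genes, where 2.71% of all tested genes were called higher. None of the 10 was called lower (background 0.681%), and 1 of them, Igf2, had an unadjusted p below 0.05 in that direction. With DESeq2, the tool of the study, 4 of the 10 were called higher (Igf1, Igfbp4, Igfbp6 and Igfbp7; background 5.2%) and none lower (background 1.87%). At the thresholds of the study, an adjusted p below 0.01 and a fold above 2.5, edgeR called Igfbp4 alone (background 0.255%) and DESeq2 called Igfbp4 and Igfbp6 (background 1.42%). The median log2 fold change of the 10 genes was 0.93, and 8 of the 10 were positive. All 3 TSK libraries lay above all 3 WT libraries for 8 of the 10 genes in CPM, where 29.1% of all tested genes did so, and for 6 of the 10 after TMM scaling, where 14.1% did so.

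**Figure D1:**
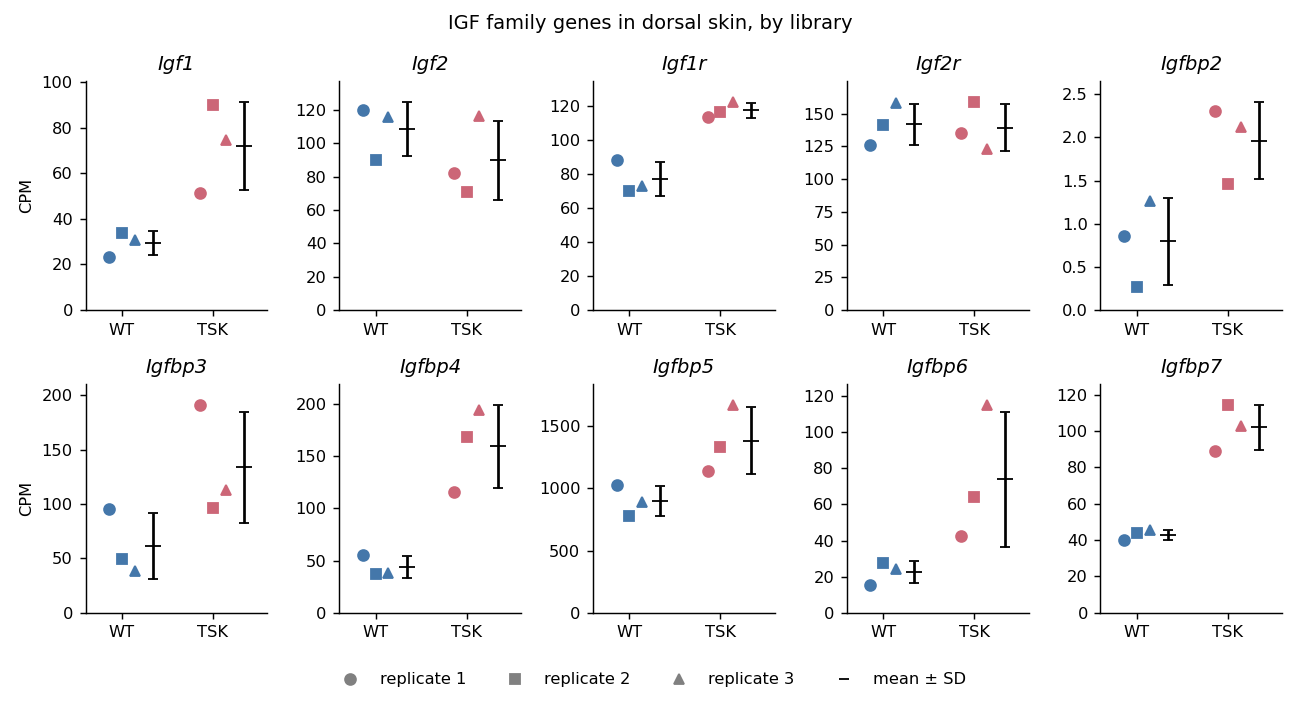
CPM of the 10 IGF family genes in each library, with 1 panel per gene, WT in blue, TSK in red, the marker shape for the replicate number and bars for the mean ± SD (n = 3). TSK and WT points overlap only for Igf2 and Igf2r, and Igfbp4 and Igfbp7 show the clearest separation.

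The promoters of the 2 genes that rose are shown together with those of Igfbp5, the most abundant member, and Igfbp6, which DESeq2 called and edgeR did not. Each sequence is the 100 bases before the RefSeq transcription start in GRCm38.p6 (mm10), written 5′ to 3′ on the strand of the gene, from chr11:99041144-99041243 (plus strand, Igfbp4), chr5:77408046-77408145 (minus strand, Igfbp7), chr1:72874866-72874965 (minus strand, Igfbp5) and chr15:102144086-102144185 (plus strand, Igfbp6). Capitals mark matches to TATAA (TATA box), GGGCGG (GC box) or CCAAT on either strand.
Igfbp4: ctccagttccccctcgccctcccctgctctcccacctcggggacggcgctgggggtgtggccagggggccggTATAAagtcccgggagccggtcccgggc
Igfbp7: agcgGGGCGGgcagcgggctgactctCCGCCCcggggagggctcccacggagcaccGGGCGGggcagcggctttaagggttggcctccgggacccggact
Igfbp5: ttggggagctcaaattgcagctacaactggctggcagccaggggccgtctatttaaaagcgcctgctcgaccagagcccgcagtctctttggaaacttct
Igfbp6: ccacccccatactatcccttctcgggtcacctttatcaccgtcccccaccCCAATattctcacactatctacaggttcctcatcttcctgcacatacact
The Igfbp4 promoter held a TATAA match that begins 28 bases before the start, and the Igfbp7 promoter held 3 GC box matches and no TATAA match in these 100 bases. The Igfbp6 promoter held 1 CCAAT match there, and the Igfbp5 promoter none of the 3 motifs. The 10 genes had 14 RefSeq promoters, of which, in the 250 bases before the start, 2 held TATAA, 6 held GGGCGG and 3 held CCAAT. Among 32841 mouse promoters the shares were 22.8%, 32.7% and 33.9%. Median GC content was 66.6% in the 14 promoters and 52.4% in all promoters. The 2 genes that rose had none of these motifs in common in the printed windows, and a match is a description of letters only.

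Igf1, the ligand through which growth hormone acts on many tissues, spans chr10:87858265-87937042 (plus strand). It was at 23.5, 34.0 and 30.5 CPM in WT 1 to WT 3 and at 51.3, 89.8 and 74.5 CPM in TSK 1 to TSK 3. The lowest TSK library was above the highest WT library. Mean CPM was 29.3 ± 5.35 in WT and 71.9 ± 19.4 in TSK (SD, n = 3), 2.45 times as high. The log2 fold change was 0.98 with a standard error of 0.25 (95% interval 0.42 to 1.55), and the adjusted p was 0.0696 with edgeR and 0.00472 with DESeq2, so the call depended on the tool. In bulk skin, changes in cell number and in RNA per cell cannot be told apart, here or in any result that follows.

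Igf2, the imprinted ligand that is most active before birth, spans chr7:142650766-142666816 (minus strand). Libraries WT 1 to WT 3 held 120, 90.2 and 116 CPM of it, and TSK 1 to TSK 3 held 82.5, 70.9 and 116 CPM. The CPM ranges overlapped through TSK 3, whereas after TMM scaling the TSK libraries (63.7 to 103 CPM) lay below the WT libraries (110 to 131 CPM), as they did for 10.5% of all tested genes. The log2 fold change was -0.55 (95% interval -0.97 to -0.13, adjusted p = 0.148, edgeR), so Igf2 was not called. Reads of Igf2 can also be assigned to Gm49394, a gene on the same strand that shares 3598 bases of transcript with it, although fewer than 1 count per library was placed there.

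The ratio of the 2 ligands does not depend on library scaling. Igf1 over Igf2, in CPM per kilobase, was 0.113, 0.218 and 0.152 in WT 1 to WT 3 and 0.359, 0.732 and 0.370 in TSK 1 to TSK 3. Igf2 was the more abundant ligand in every library on this scale, and the lowest TSK ratio was above the highest WT ratio. In CPM without length correction, Igf1 exceeded Igf2 in TSK 2 alone (89.8 against 70.9). The ratio was 2.96 times as high in TSK skin (exact permutation test, two-sided, p = 0.1, the smallest that 3 against 3 libraries can give; adjusted p = 0.1 over 2 ratios). The summed ligand level, by contrast, was 22.0 ± 2.39 CPM per kilobase in WT and 23.0 ± 4.34 in TSK libraries, with overlapping ranges.

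Igf1r, the signalling receptor for both ligands, spans chr7:67952827-68233668 (plus strand). It stood at 88.7, 70.1 and 73.1 CPM in WT 1 to WT 3 and at 114, 117 and 123 CPM in TSK 1 to TSK 3. TSK libraries varied little and all lay above WT. The mean was 77.3 ± 9.99 CPM in WT and 118 ± 4.55 CPM in TSK skin, and the log2 fold change after TMM scaling was 0.33 (95% interval 0.08 to 0.59), which did not pass the threshold (adjusted p = 0.14, edgeR). With library size alone it was 0.61, and Igf1r was called (adjusted p = 0.0314, edgeR). Both limma-trend fits on the CPM called it too (adjusted p = 0.0237 and 0.0252).

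Igf2r, the clearance receptor for IGF2 and a carrier of mannose 6-phosphate proteins, spans chr17:12682406-12769664 (minus strand). Its values were 126, 141 and 158 CPM in WT 1 to WT 3 and 136, 159 and 123 CPM in TSK 1 to TSK 3, so the groups overlapped fully. Its log2 fold change was -0.32 (95% interval -0.73 to 0.09, adjusted p = 0.373, edgeR), and it was -0.21 without WT 3 and -0.02 with library size alone. The gene overlaps the antisense RNA Airn over 28354 bases, and the strand setting of the counting is not given in the sources used here. Igf1r over Igf2r was 0.390, 0.275 and 0.257 in WT 1 to WT 3 and 0.465, 0.407 and 0.551 in TSK 1 to TSK 3, in CPM per kilobase. All TSK ratios were above all WT ratios, by 1.56 times on average (exact permutation test, two-sided, p = 0.1, adjusted p = 0.1 over 2 ratios).

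**Figure D2:**
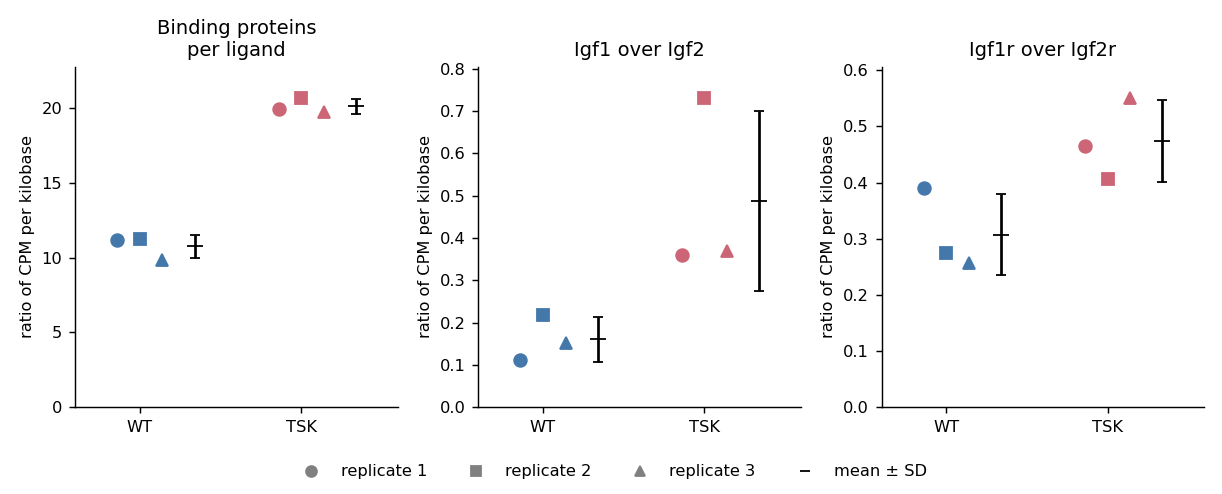
Ratios of CPM per kilobase in each library, WT in blue and TSK in red, with bars for the mean ± SD (n = 3): summed binding proteins over summed ligands, Igf1 over Igf2, and Igf1r over Igf2r. The TSK points lie above the WT points in every panel, by the widest margin relative to their spread for binding proteins per ligand (19.7 to 20.7 against 9.84 to 11.2).

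Igfbp4, a binding protein that restrains IGF action and is cut by the protease PAPP-A, spans chr11:99041244-99054392 (plus strand). It was at 55.8, 36.7 and 38.1 CPM in WT 1 to WT 3 and at 116, 168 and 194 CPM in TSK 1 to TSK 3. Every TSK library held more than any WT library, with TSK 1 the lowest of the 3. The mean rose from 43.5 ± 10.6 to 159.6 ± 39.9 CPM, 3.67 times, the largest ratio among the 10 genes. The log2 fold change was 1.61 with a standard error of 0.19 (95% interval 1.17 to 2.04, adjusted p = 0.00858 with edgeR and 1.22e-12 with DESeq2). Without WT 3 the adjusted p was 0.0561. Its transcripts share stretches of up to 144 bases at 95.1% identity with Ctdspl2, so a small part of its estimated counts could have been shared with other genes.

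Igfbp7, a secreted protein that binds IGFs weakly and is deposited around blood vessels and in the matrix, spans chr5:77349240-77408041 (minus strand). Its values were 39.9, 43.7 and 45.4 CPM in WT 1 to WT 3 and 88.9, 114 and 103 CPM in TSK 1 to TSK 3. Replicates were tight in both groups and did not overlap. The mean rose from 43.0 ± 2.78 to 102 ± 12.6 CPM, 2.37 times. After TMM scaling the log2 fold change was 0.95 with a standard error of 0.15 (95% interval 0.60 to 1.31, adjusted p = 0.0188 with edgeR and 9.12e-06 with DESeq2). Without WT 3 the adjusted p was 0.0822.

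Igfbp6, which prefers IGF2 over IGF1, spans chr15:102144362-102149511 (plus strand). It was at 15.7, 27.7 and 24.0 CPM in WT 1 to WT 3 and at 42.5, 64.3 and 115 CPM in TSK 1 to TSK 3. The groups did not overlap, and TSK 3 was far above the other two. The ratio of the means was 3.30 (22.5 ± 6.16 against 74.1 ± 37.4 CPM), and the log2 fold change of 1.397 (95% interval 0.54 to 2.25) had an adjusted p of 0.0827 with edgeR and 0.00241 with DESeq2. Without TSK 3 the log2 fold change was 0.95.

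Igfbp3, the main carrier of IGFs in blood, spans chr11:7206086-7213923 (minus strand). Libraries WT 1 to WT 3 held 95.5, 49.7 and 38.4 CPM of it, and TSK 1 to TSK 3 held 192, 96.3 and 113 CPM. WT 1 nearly reached TSK 2, so replicates spread widely in both groups, and after TMM scaling the groups overlapped. With edgeR its log2 fold change was 0.90 (95% interval 0.13 to 1.67, adjusted p = 0.185), and without TSK 1 it was 0.51.

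Igfbp5, a binding protein that attaches to matrix and cell surfaces, spans chr1:72857932-72874884 (minus strand). It stood at 1025, 780 and 894 CPM in WT 1 to WT 3 and at 1142, 1331 and 1674 CPM in TSK 1 to TSK 3. All TSK libraries were above all WT libraries, but TSK 1 and WT 1 were close. The log2 fold change after TMM scaling was 0.34 (95% interval -0.10 to 0.79, adjusted p = 0.368, edgeR), so no call was made for the most abundant member. Without TSK 3 it was 0.20.

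Igfbp2, a binding protein of fetal tissues and blood, spans chr1:72824503-72852474 (plus strand), beside Igfbp5 on the opposite strand. It was near the lower limit of detection, at 0.854, 0.266 and 1.26 CPM in WT 1 to WT 3 and 2.31, 1.46 and 2.12 CPM in TSK 1 to TSK 3, which is 5 to 42 counts per library. The log2 fold change was 1.04 (95% interval -0.01 to 2.08, adjusted p = 0.252, edgeR), and it was 0.67 without WT 2 and 1.59 without WT 3. These neighbours thus differed greatly in level, and neither was called.

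**Figure D3:**
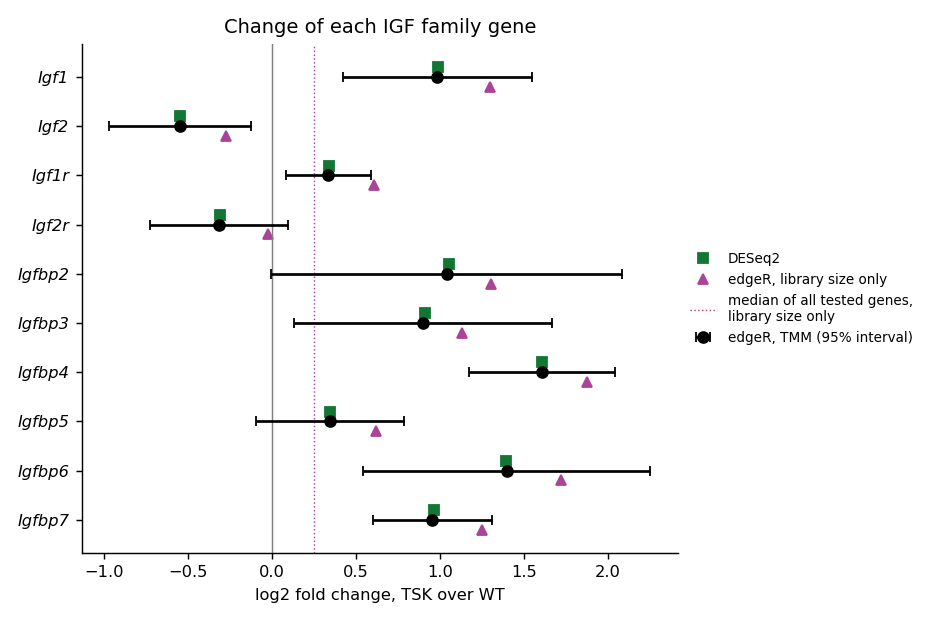
Log2 fold change, TSK over WT, of the 10 IGF family genes with edgeR and TMM scaling (circles, with 95% intervals), with DESeq2 (squares) and with edgeR and library size alone (triangles), where the dotted line is the median of all tested genes on the last scale (0.25). Igfbp4 (1.61) and Igfbp7 (0.95) were the members called by edgeR with TMM scaling, the intervals of that fit for Igf2r, Igfbp2 and Igfbp5 reach across 0, and no gene changes sign between the 3 fits.

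Per kilobase of exon, Igfbp5 led in both groups, with 149.8 ± 20.5 CPM per kilobase in WT and 230 ± 44.9 in TSK skin. Igfbp7 followed, at 35.5 ± 2.30 in WT and 84.4 ± 10.4 in TSK skin. The order below them in WT was Igfbp6 (20.2), Igfbp3 (19.5), Igf2 (18.995), Igf2r (15.2), Igfbp4 (9.86), Igf1r (4.60), Igf1 (2.96) and Igfbp2 (0.430), and the libraries overlapped between the neighbours Igfbp6 and Igfbp3, Igfbp3 and Igf2, and Igf2 and Igf2r. In TSK skin the order was Igfbp6 (66.6), Igfbp3 (42.7), Igfbp4 (36.1), Igf2 (15.7), Igf2r (14.97), Igf1 (7.26), Igf1r (7.01) and Igfbp2 (1.06). There the neighbours Igfbp7 and Igfbp6, Igfbp6 and Igfbp3, Igfbp3 and Igfbp4, Igf2 and Igf2r, and Igf1 and Igf1r overlapped. The place of Igfbp4 moved from the seventh to the fifth, past Igf2 and Igf2r, and all 3 of its TSK libraries were above those of Igf2.

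Summed over the 6 genes, binding protein transcripts were at 261, 215 and 229.5 CPM per kilobase in WT 1 to WT 3 and at 391, 444 and 549 in TSK 1 to TSK 3. The sum was 1.95 times as high in TSK skin, with no overlap (exact permutation test, two-sided, p = 0.1). This log2 difference of 0.96 is on the scale of library size, and it was 0.68 after TMM scaling. Set against the ligands, there were 11.2, 11.2 and 9.84 units of binding protein transcript per unit of ligand transcript in WT 1 to WT 3 and 19.9, 20.7 and 19.7 in TSK 1 to TSK 3. The inverse, ligand over binding protein, was 0.534 times the WT value in TSK skin (exact permutation test, two-sided, p = 0.1), a log2 difference of -0.91, which was -0.57 without length correction. Without Igfbp5, which made up most of the sum in WT, there were 3.88, 4.44 and 3.46 units per unit of ligand in WT 1 to WT 3 and 10.2, 10.3 and 9.70 in TSK 1 to TSK 3. The groups did not overlap without it either.

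The make-up of the binding proteins was compared as the share of each in their sum. No share could pass the test, because 3 against 3 libraries cannot give a p below 0.1. Igfbp5 accounted for 63.5% ± 2.74 of the summed CPM per kilobase in WT and 49.8% ± 1.06 in TSK skin (SD, n = 3). The share of Igfbp4 was 4.15% ± 0.592 in WT and 7.78% ± 0.960 in TSK skin. For both genes the groups did not overlap, with p = 0.1 in the exact permutation test (two-sided) and an adjusted p of 0.3 over the 6 genes. Igfbp6 held 8.79% ± 3.14 and 13.9% ± 4.62, and Igfbp7 15.3% ± 2.28 and 18.5% ± 2.89, with overlap for both. These 2 differences, 5.11 and 3.28 percentage points, depended on the scale, and without length correction they were 1.67 (p = 0.2, exact permutation test) and 1.49 points (p = 0.1, exact permutation test). Without TSK 3 the difference for Igfbp6 was 2.62 points, and without TSK 2 that for Igfbp7 was 1.91 points. The shares of Igfbp3 (8.13% ± 3.23 and 9.73% ± 5.14) and Igfbp2 (0.181% ± 0.116 and 0.236% ± 0.0748) overlapped as well.

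**Figure D4:**
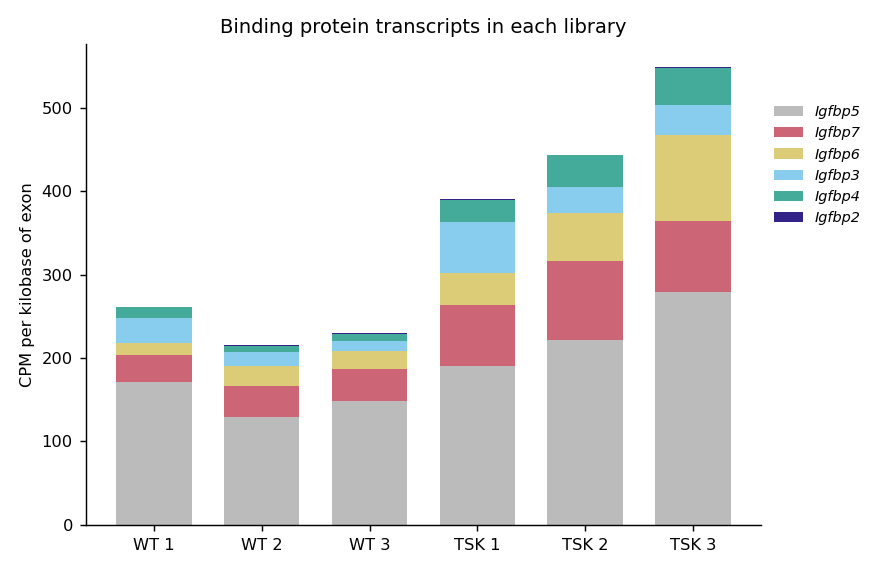
Levels of the 6 binding proteins in each library, in CPM per kilobase of exon, stacked so that the height of a bar is their sum. The bars reach 215 to 261 in WT and 391 to 549 in TSK libraries, and Igfbp5 is the largest piece of each.

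The genes whose pattern over the 6 libraries was most like that of the 2 called members were sought among 12016 genes with a mean of at least 5 CPM, as the root mean square difference of TMM-scaled log2 CPM after centring each gene. The difference between the groups stays in this measure, so it largely reflects how alike the log2 fold changes are. Closest to Igfbp4 were Lepr, the leptin receptor (0.0880, log2 fold change 1.66), Ugdh, which makes the sugar donor for hyaluronan (0.109, 1.46), and Cmah, a sialic acid hydroxylase (0.113, 1.62). Closest to Igfbp7 were Vwf, the von Willebrand factor of endothelium (0.0812, 0.99), Ecm2, a matrix protein (0.0880, 0.89), and Uap1, an enzyme of amino sugar synthesis (0.0883, 0.93). Within the family, the closest pairs were Igf1r with Igfbp5 (0.134) and Igf1 with Igfbp7 (0.178), and the farthest was Igf2 with Igfbp4 (1.11).

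Around the family, 6 lists of related genes held 60 genes, of which 54 were tested, 2 were called higher and none lower with edgeR. At an unadjusted p below 0.05 there were 11 higher and 2 lower, and DESeq2 called 3 higher and none lower. The called share, 3.7%, was near the 2.71% of all tested genes, and the median log2 fold change of the 54 genes was 0.07. Both called genes came from the list of genes that set IGF availability (10 of 12 tested, 9 positive, median 0.48). Pappa2, a metalloprotease that cuts IGFBP3 and IGFBP5, was at 5.18, 2.04 and 2.22 CPM in WT 1 to WT 3 and at 29.8, 9.15 and 25.1 CPM in TSK 1 to TSK 3, and rose by 2.54 on the log2 scale (adjusted p = 0.0288, edgeR). Htra3, a secreted serine protease with an IGFBP-like domain, was at 20.0, 36.4 and 28.7 CPM in WT 1 to WT 3 and at 113, 165 and 197 CPM in TSK 1 to TSK 3, and rose by 2.16 on the log2 scale (adjusted p = 0.0130, edgeR). The call on Htra3 was lost without WT 3 (adjusted p = 0.0674), and that on Pappa2 without WT 2 (0.0875), WT 3 (0.125), TSK 1 (0.0550) or TSK 3 (0.0725), all with edgeR, and with limma-voom (adjusted p = 0.0685). The remaining genes of this list were not called. Igfbp1, the liver-type binding protein that lies beside Igfbp3, had 2 counts in WT 1 and 0 in the other 5 libraries, which allows up to 0.156 to 0.165 CPM in these 5.

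In the other 5 lists no gene was called with edgeR. In the growth hormone axis (6 tested, median 0.00) the lowest p-values belonged to Socs2, a feedback inhibitor of growth hormone signalling (0.49, adjusted p = 0.347), and Jak2, the kinase of the growth hormone receptor (-0.31, adjusted p = 0.352). Among the insulin receptor and its adaptors (7 of 9 tested, median 0.12) they belonged to Grb14 (-0.52, adjusted p = 0.216) and Grb10 (0.31, adjusted p = 0.233), both inhibitory adaptors of the insulin and IGF1 receptors. In the PI3K and AKT list (19 tested, median 0.02) the lowest p among genes with a negative value belonged to Tsc1, an inhibitor of mTOR (-0.31, adjusted p = 0.25). These log2 fold changes were small beside those of Igfbp4 and Pappa2. Of the imprinted growth genes (10 of 11 tested, median -0.19), the noncoding RNA Meg3 was at 69.6, 80.6 and 76.4 CPM in WT 1 to WT 3 and at 165, 178 and 407 CPM in TSK 1 to TSK 3. Its log2 fold change of 1.42 passed with DESeq2 (adjusted p = 0.000228) and not with edgeR (adjusted p = 0.0579). Peg3, an imprinted zinc finger gene, had the lowest p among those with a negative value (-0.39, adjusted p = 0.339). For the mRNA binding proteins of Igf2 (2 of 3 tested), Igf2bp2 had a log2 fold change of -0.44 (adjusted p = 0.279).

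Several lists of cell type markers were, like the binding proteins, higher in TSK skin. The 13 fibroblast markers summed to 6515 to 9821 CPM in WT and 20914 to 48107 CPM in TSK libraries, 4 were called higher, and their median log2 fold change was 0.94. Most of this sum came from the collagen genes Col1a1, Col1a2 and Col3a1 (22614, 10548 and 13646 CPM in TSK 3). All 13 markers had a positive log2 fold change. TSK 3, the highest library for Igfbp4, Igfbp5 and Igfbp6, was also the highest for fibroblast markers (48107 CPM) and macrophage markers (1234 CPM). The WT libraries followed this order only in part. WT 1, the highest WT library for Igfbp3, Igfbp4 and Igfbp5, was the lowest for fibroblast markers (6515 CPM). It was the highest WT library for macrophage markers (375 CPM). Igfbp6 and Igfbp7 were lowest in WT 1, and Igfbp3 was highest in TSK 1 (192 CPM). The 8 endothelial markers, which include Vwf, summed to 150 to 178 CPM in WT and 268 to 448 CPM in TSK libraries, 2 were called higher, and TSK 2 was the highest for them. TSK 2 was also the highest library for Igfbp7 and Igf1, for adipocyte markers (3154 CPM, against 889 in TSK 1 and 702 in TSK 3) and for smooth muscle and pericyte markers (805 CPM, against 632 and 616). Adipocyte markers ranged from 419 to 534 CPM in WT and from 702 to 3154 CPM in TSK libraries (2 of 9 called higher), macrophage markers from 238 to 375 and from 443 to 1234 CPM (none of 9 called with edgeR, 7 with an unadjusted p below 0.05, 4 called with DESeq2), and smooth muscle and pericyte markers from 408 to 563 and from 616 to 805 CPM (1 of 8 called higher). Hair follicle markers ranged from 29.4 to 63.7 CPM in WT and from 68.9 to 80.9 CPM in TSK libraries (4 of 8 called higher, median log2 fold change 1.57), and differentiated keratinocyte markers from 1160 to 1885 and from 1925 to 3249 CPM (1 of 6 called higher). Basal keratinocyte markers overlapped, at 3974 to 7715 CPM in WT and 3870 to 6154 CPM in TSK libraries (0 of 6 called with either edgeR or DESeq2, 0 with an unadjusted p below 0.05). Developing muscle markers went the other way, from 134 to 278 CPM in WT and from 43.7 to 50.9 CPM in TSK libraries, with 7 of 8 called lower. Adult skeletal muscle markers summed to 159862 to 232655 CPM in WT and 138661 to 158502 CPM in TSK libraries, and 9 of the 11 had a negative log2 fold change (median -0.75). With edgeR 0 of the 11 were called and 5 were lower at an unadjusted p below 0.05, whereas DESeq2 called 8 lower and 1 higher. DESeq2 also called more markers higher than edgeR did for fibroblasts (10), adipocytes (5), smooth muscle and pericytes (5) and endothelium (3), and called 3 higher for hair follicle and 1 for differentiated keratinocytes. No marker of the fibroblast, endothelial, adipocyte or macrophage list was at 0 in all libraries. Their part in the IGF family results was not tested.

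**Figure D5:**
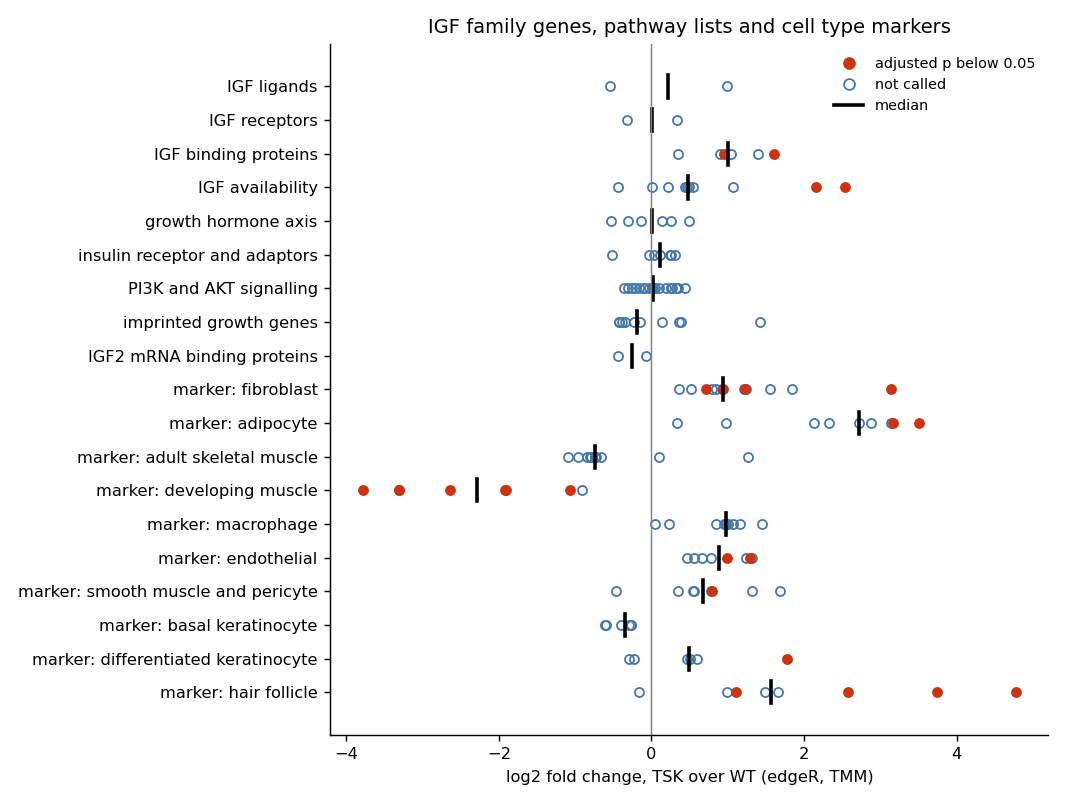
Log2 fold changes, TSK over WT, of the IGF family genes, the 6 pathway lists and the marker lists in the edgeR fit, with 1 point per gene, filled points for genes called at an adjusted p below 0.05 and a bar for the median of each list. The binding proteins and fibroblast markers lie to the right of 0, the signalling lists sit around 0, and developing muscle markers lie to the left (median -2.28).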

How the data were processed

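Dorsal skin RNA from 3 WT and 3 TSK mice was analysed, with groups and replicate numbers taken from the sample labels. According to the methods, the libraries were stranded and depleted of ribosomal RNA, and, per the submitters' processing notes, STAR, mm10 and Partek (version 11.0) were used. The authors deposited estimated counts per gene, described as raw, and CPM, which scale the counts of each library to 1000000. Between 43.3% and 45.4% of the nonzero values of a library were whole (within 0.001). The test had been planned for raw counts, so the estimated counts were rounded first. An estimated count can split a read among genes that share sequence.

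edgeR 4.0.16 (quasi-likelihood, TMM, filterByExpr, R 4.3.3) was fitted on all genes, with Benjamini-Hochberg adjustment over 19971 genes. DESeq2 1.42.0 and limma 3.58.1 were alternatives, with other scalings, filters, pseudocounts (1 and 0.1 on the CPM), a replicate block, and each library left out in turn. The fits were tested on simulated data. Gene lengths are unions of annotated GENCODE exons, and gene coordinates are from GENCODE (GRCm38). Promoters are RefSeq's, and shared stretches (at least 50 bases, 95% identity) were found with BLAST 2.17.0. Permutation tests used scipy 1.17.1.

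Genes named were the 10 members, Fbn1, Ddx3y and Xist, the called genes of each list or else the lowest p in each direction, and the 3 genes most like each called member. 1 gene that this rule names in the PI3K and AKT list is not reported here. The members and lists were chosen with earlier results of these data known. That each mouse is a separate animal rests on the labels and methods. Replicate numbers did not pair the mice (correlations of deviations 0.0112, 0.167 and -0.0938). Libraries of 1 group differed beyond sampling noise (lowest chi-square per degree of freedom 8.02).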

Additional observations from a re-analysis of the deposited data

How the results depend on the processing

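Every one of the 10 genes kept the sign of its log2 fold change in all 15 alternatives, and 132 of 150 values stayed on the same side of the threshold. The count of members called higher was 4 with DESeq2 and without the filter on low counts, and 5 with library size alone, with limma-trend on log2(CPM + 1) and on log2(CPM + 0.1), and with the replicate block. Leaving out 1 library gave 0 to 2, and 0 without WT 3, where 5 had an unadjusted p below 0.05. At the study's thresholds the count was 2 with DESeq2, 0 with limma-voom, 0 with the replicate block, and 0 to 1 with a library left out (1 without TSK 1). Pathway genes called higher numbered 1 with limma-voom, 6 with library size alone, 8 and 9 with limma-trend at pseudocounts 1 and 0.1, and 0 to 2 with a library left out, and those called lower 0 to 1 (1 without WT 1). The replicate block called Igf1 (adjusted p = 0.0110), Igfbp3 (0.0336) and Igfbp6 (0.0197) beside Igfbp4 (0.0120) and Igfbp7 (0.0139), all from edgeR, although the mice share only a number. Over all genes, 542 were higher and 136 lower, against 1685 and 93 with library size alone, 1771 and 100 or 1761 and 99 with limma-trend, 1129 and 406 with DESeq2, 665 and 129 with the replicate block, 1040 and 347 without the filter, and, for a library left out, 713 and 547 (WT 1), 226 and 61 (WT 2), 45 and 15 (WT 3), 321 and 60 (TSK 2) and 322 and 65 (TSK 3). The higher share of calls was 79.9%, against 94.8% with library size alone and 56.6% without WT 1. The difference in the share of Igfbp3 among binding proteins, 1.603 percentage points, ranged from -1.36 (without TSK 1) to 3.37 with a library left out, and that of Igfbp2, 0.0549 points, from -0.0020 (without WT 2) to 0.114. The summed binding protein level, 0.96 on the log2 scale, was 0.79 without length correction. The cause of these changes was not tested. With 3 mice per group no permutation test could reach 0.05, and 0.25 was the smallest p for 3 pairs.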
